A study of Mus musculus with 27 samples.

Results

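The BMP and Id genes examined here were 10 genes, a list named by their roles in the pathway, of the 25209 genes listed for each comparison of Zfp512b knockout mouse embryonic stem cells (mESCs) with wild-type (WT) cells. They comprised the ligands Bmp2, Bmp4 and Bmp7, the co-receptor Tgfbr3, the inhibitory SMADs Smad6 and Smad7, and the target genes Id1, Id2, Id3 and Id4. RNA was sequenced from V6.5 mESCs that were WT or carried a disrupted Zfp512b gene, which encodes a zinc finger protein, through an inserted transcriptional terminator. Each knockout genotype, KO4 and KO8, was 1 selected clone of V6.5 cells, so that clone and genotype cannot be told apart. Cells were taken in the naive state at day 0 (3 libraries each of WT, KO4 and KO8), after priming at day 2 (2 libraries each), as embryoid bodies differentiated to neural progenitor cells (NPC) with 5 µM retinoic acid at day 10 (2 each), and as embryoid bodies differentiated to cardiomyocytes (CM) at day 7.5 (2 each), which made 27 libraries. The CM and NPC stages were thus mixed cultures, and in such bulk RNA fewer cells of a type and less RNA per cell cannot be told apart. Nothing in the labels says whether the replicate libraries came from separate cultures, and p-values measure only the spread between them.

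Bone morphogenetic proteins are secreted dimers that bind paired serine/threonine kinase receptors on the cell surface, which phosphorylate SMAD1, SMAD5 and SMAD9. The phosphorylated SMADs join SMAD4 in the nucleus and activate target genes, among them the Id genes, whose helix-loop-helix proteins bind E proteins and keep them off DNA, and Smad6 and Smad7, which feed back to dampen the pathway. In mESCs BMP4 and Id proteins help to hold back neural differentiation, and BMP signalling later acts in forming mesoderm and heart.

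The promoters are shown for Id1, Id3 and Bmp4, on which the difference between the clones in naive cells turns, and for Id4, the member called at 3 stages. Each window covers the 250 bases upstream of the annotated start of the gene in the mm9 (NCBIM37) build, written 5′ to 3′ on the strand of the gene, and capitals mark GTCT or its complement AGAC, the core to which SMAD proteins bind. For Id1 the window was chr2:152561737-152561986 on the plus strand, for Id3 chr4:135699162-135699411 on the plus strand, for Id4 chr13:48356546-48356795 on the plus strand and for Bmp4 chr14:47010345-47010594 on the minus strand.
Id1: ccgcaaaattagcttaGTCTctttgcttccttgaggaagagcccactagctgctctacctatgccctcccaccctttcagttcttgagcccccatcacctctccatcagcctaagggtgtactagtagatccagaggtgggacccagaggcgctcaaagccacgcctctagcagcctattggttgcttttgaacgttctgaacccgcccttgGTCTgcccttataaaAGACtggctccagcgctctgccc
Id3: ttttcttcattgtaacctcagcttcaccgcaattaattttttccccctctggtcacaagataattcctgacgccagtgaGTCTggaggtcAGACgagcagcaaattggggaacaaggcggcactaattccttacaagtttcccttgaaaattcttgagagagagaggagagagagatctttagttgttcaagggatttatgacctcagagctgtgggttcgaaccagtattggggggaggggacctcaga
Id4: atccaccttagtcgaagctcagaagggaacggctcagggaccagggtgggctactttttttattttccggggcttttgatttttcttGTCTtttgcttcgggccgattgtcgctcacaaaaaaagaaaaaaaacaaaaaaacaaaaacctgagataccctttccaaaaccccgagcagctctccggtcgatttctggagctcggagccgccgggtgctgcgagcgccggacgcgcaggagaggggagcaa
Bmp4: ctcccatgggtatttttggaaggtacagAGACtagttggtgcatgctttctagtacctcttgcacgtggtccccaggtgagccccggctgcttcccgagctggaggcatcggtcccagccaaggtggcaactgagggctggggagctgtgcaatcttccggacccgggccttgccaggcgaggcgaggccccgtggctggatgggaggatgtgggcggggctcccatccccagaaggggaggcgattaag
The core occurred 3 times in the window of Id1, 2 times in that of Id3 and 1 time each in those of Id4 and Bmp4, and it occurred on either strand in 82.2% of the 22233 windows of protein-coding genes. The longer GC-rich SMAD motif GGCGCC, which is its own reverse complement, was in 11.2% of all windows and in none of these 4. Among the member windows searched, which left out that of Smad7, it was in 1, that of Id2. These are matches of letters and say nothing of binding.

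The deposited tables give the average of the normalised reads over all libraries of 1 clone and WT (the base mean), and no value per library. The reads of single libraries could be recovered from the base means of both tables of a stage only for genes with low enough values. This gave 15 of the 40 combinations of member and stage: Id3, Bmp2 and Bmp4 in naive cells, all members but Id1 and Smad7 in primed cells, Id4, Bmp2 and Bmp4 in NPC, and Id4 in CM. For the rest no comparison with WT could be tested, and the base means are given. Because both tables of a stage hold the same WT libraries, the ratio of their base means on a common scale is a lower bound on the fold change between the mean of KO4 and the mean of KO8. Recovered libraries carry letters without meaning and no replicate number. Library sizes were 34.2 to 39.7 M reads in naive cells and 15.1 to 19.5 M at the other stages.

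The targeted gene was checked first. In primed cells Zfp512b had 929 and 977 normalised reads in the WT libraries, 191 and 219 in KO4 and 184 and 154 in KO8. The clones lay far below WT, with log2 fold changes of -2.21 (SE 0.10, limma adjusted p = 3.47e-19) in KO4 and -2.49 (SE 0.11, adjusted p = 2.14e-87) in KO8. These p-values rest on the trended spread that limma fits over all genes. With a common spread for all levels in its place, 0 of 8842 genes passed in KO4, so that the call of Zfp512b was lost there. In KO8 11 of 8823 genes passed, and whether Zfp512b was among them is not given. The distance of the reads from WT does not depend on that choice. At the other stages the reads of Zfp512b could not be separated, and its base means in the KO4 and KO8 tables were 697 and 675 in naive cells, 1325 and 1354 in NPC and 643 and 645 in CM. Summed markers of naive cells, primed cells and cardiomyocytes were highest at the stage of their label in the KO4 and KO8 tables. Those of naive cells were at 3648 and 3705 RPM (reads scaled to a common total of the table) in the naive stage. They were still at 1617 and 1538 in the primed stage and at 162 and 127 in CM. Of these genes only Zfp42 was higher in the primed stage (414 and 389) than in the naive stage (387 and 378). Markers of primed cells were at 1257 and 1337 in the primed stage against 188 and 190 in the naive stage. Dnmt3b alone made 1115 and 1184 of that sum. Pou3f1 was also highest in the primed stage, whereas Fgf5 (2.04 and 2.27) and Otx2 (51.6 and 55.2) were higher in CM (46.6 and 34.7, and 156 and 56.8). Markers of cardiomyocytes were at 670 and 1016 in CM against at most 11.6 at the other stages. Neural progenitor markers summed to 299 and 305 in NPC, below the 452 of the KO4 table of CM, and neuron markers to 212 and 283. Nes alone made 258 and 261 of the neural progenitor sum in NPC. At that stage the markers of smooth muscle and fibroblasts summed to 731 and 691 and those of endoderm to 478 and 426, both above the neural progenitor markers. Those of endothelium summed to 326 and 291.

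The levels of the members across the stages are given as base means in RPM and per kb of exon, so that genes and stages can be compared, in the order KO4 table and KO8 table. Of the ligands, Bmp4 was lowest in naive cells, at 1.25 and 0.714, was at 13.2 and 12.7 in primed cells and at 8.45 and 7.92 in NPC, and highest in CM at 32.8 and 49.0. Bmp2 was close to absent before differentiation, at 0.0387 and 0.0402 in naive and 0.0579 and 0.0338 in primed cells, and reached 2.38 and 2.73 in NPC and 13.5 and 23.9 in CM. Bmp7, in contrast, was lowest after priming, at 0.523 and 0.501, with 2.95 and 3.40 in naive cells, 16.2 and 18.3 in NPC and 14.0 and 16.9 in CM. The co-receptor Tgfbr3, which binds TGF-beta, inhibins and BMPs and has no kinase of its own, had the same order, from 0.177 and 0.146 in primed and 0.574 and 0.542 in naive cells to 23.1 and 21.7 in NPC and 7.48 and 17.2 in CM.

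The inhibitory SMADs differed from each other. Smad6, which acts mainly on the BMP branch, followed Bmp7 and Tgfbr3, with 3.01 and 3.26 in naive cells, 1.85 and 1.86 in primed cells, 38.2 and 34.0 in NPC and 17.9 and 37.8 in CM. Smad7, which acts on the TGF-beta and BMP branches, varied least of the members, with 12.0 and 12.7 in naive, 21.1 and 20.0 in primed, 15.2 and 14.8 in NPC and 13.4 and 18.3 in CM. The Id genes fell into 2 kinds. Id1, Id2 and Id3 were lowest in naive cells, at 5.29 and 3.09, 3.68 and 4.63, and 1.74 and 1.06, and intermediate in primed cells, at 51.0 and 49.5, 16.3 and 16.6, and 8.12 and 9.49. Id1 then stood at 100.3 and 86.1 in NPC and 114 and 141 in CM, Id2 at 176 and 164 in NPC and 101 and 126 in CM, and Id3 at 176 and 161 in NPC and 114 and 92.1 in CM. Id4 was instead lowest in primed cells, at 1.85 and 1.70, with 9.44 and 9.74 in naive cells, 4.17 and 4.38 in NPC and 10.5 and 11.7 in CM.

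The order of NPC and CM differed between the tables for Smad6 and Smad7, and the margins were small for Id4 between naive cells and CM. Without scaling to the table sum, Id4 and Smad7 were highest in naive cells and the other 8 members in NPC or CM. Relative to the table sum, no member was highest in naive cells. These levels are averages over WT and clone libraries, have no error, and were not tested. According to the paper, naive cells were kept with LIF and kinase inhibitors, and the later stages in medium with fetal calf serum. Stage and medium thus cannot be told apart between naive cells and the rest.

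**Figure D1:**
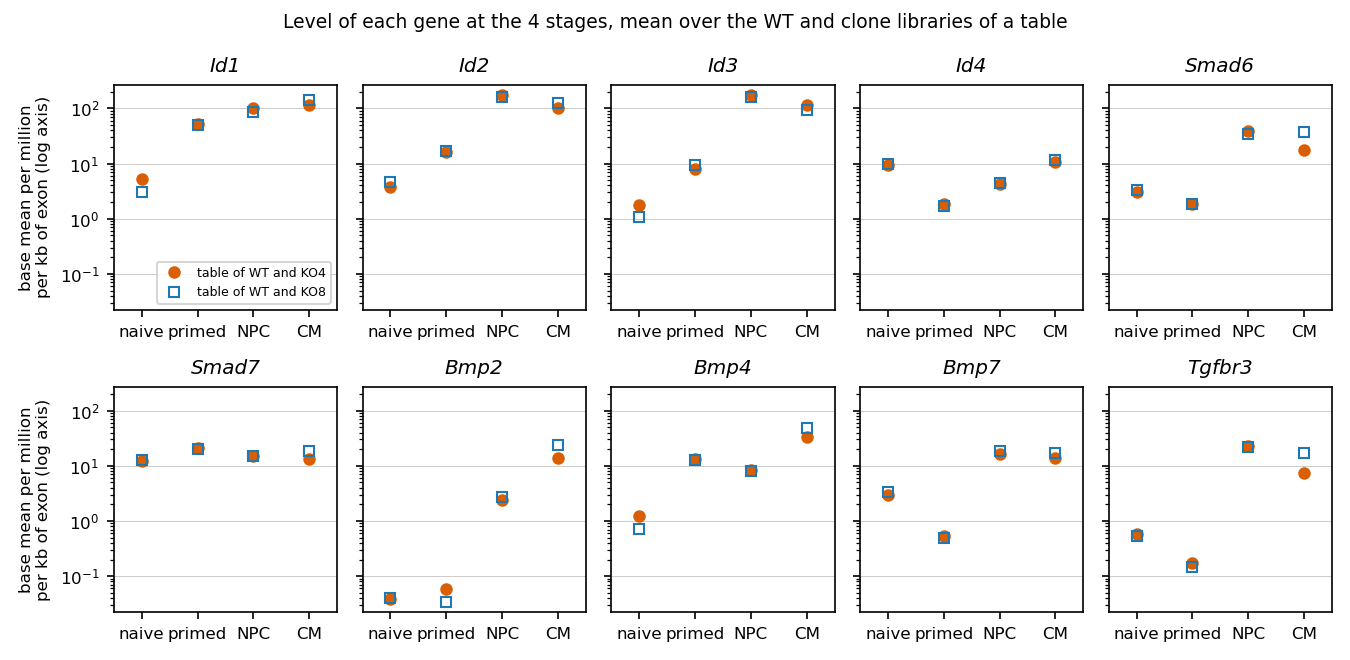
Level of each of the 10 genes (base mean in RPM per kb of exon, log axis) at the 4 stages, in the table of WT and KO4 (filled) and the table of WT and KO8 (open). Id1, Id2 and Id3 lie lowest in the naive stage and highest in NPC and CM, Bmp2 has the widest range, and Smad7 the narrowest.

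Over the 8 tables, the genes whose base means in RPM followed the summed level of Id1 and Id3 most closely were Trim44, Aff3 and Gpsm1, each with a Spearman correlation of 1 and Pearson correlations of 0.996, 0.964 and 0.963. They were among 72 of 12906 genes with that Spearman correlation. Of the other members Id2 came closest, with 0.952 (Spearman) and 0.970 (Pearson). The tables of a stage share their WT libraries, so that these are descriptions over 4 stages.

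In naive cells, the ligand Bmp4 was higher in KO4 than in WT and in KO8 under every set of reads found, and KO8 lay above WT in the set used and in part of the others. The reads of Bmp4 and Id3 at this stage could be read as 1 set only when the replicates of a group were held to within 2-fold of each other, and all the values for single naive libraries of these 2 genes depend on that. Bmp4 had 48.2, 35.0 and 34.5 normalised reads in the WT libraries, 150.4, 168 and 169 in KO4, and 71.2, 85.3 and 68.3 in KO8. The 3 groups did not overlap, with means of 39.2 ± 7.78 in WT, 162 ± 10.3 in KO4 and 74.9 ± 9.10 in KO8 (SD, n = 3). The log2 fold change was 2.04 (SE 0.19, limma adjusted p = 6.85e-11) in KO4 and 0.93 (SE 0.24, adjusted p = 0.00326) in KO8, and KO4 exceeded KO8 by 1.11 (SE 0.16, adjusted p = 1.55e-09). When replicates were allowed to differ by up to 4-fold, 20 sets of reads gave the same base means. KO4 was above WT in all 20 and KO8 in 12, and the fold of KO4 over KO8 ranged from 1.87 to 4.06.

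Id3, a target of the pathway, was higher in KO4 than in WT, whereas KO8 overlapped WT. Its normalised reads were 48.2, 85.0 and 66.9 in WT, 193, 175 and 105 in KO4, and 87.1, 60.5 and 63.0 in KO8. All 3 KO4 libraries exceeded every library of WT and KO8, though the lowest of them stood well apart from the other two. The means were 66.7 ± 18.4 in WT, 158 ± 46.4 in KO4 and 70.2 ± 14.7 in KO8 (SD, n = 3). The log2 fold change was 1.22 (SE 0.20, limma adjusted p = 6.37e-06) in KO4 and 0.09 (SE 0.22, adjusted p = 0.819) in KO8, and the clones differed by 1.13 (SE 0.17, adjusted p = 2.78e-09). With replicates up to 4-fold apart, 64 sets gave the same base means, KO4 was above WT in 63 and KO8 in 41 of them, and KO4 exceeded KO8 by 1.66 to 6.07-fold.

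Both members tested in naive cells were thus higher in KO4, beside 23.6% of 2721 genes called in either direction, and 1 of 2 in KO8, beside 21.9% of 2790. Both were also higher in KO4 than in KO8, where 10.9% of 2741 genes were called. These calls and their p-values rest on the 2-fold bound, which lowers the spread between replicates. That bound was added so that genes such as Id3 and Bmp4 could be read. With the wider search range neither could be tested, so these counts are not read against the shares of all genes. The third recovered member, Bmp2, lay under the minimum of 10 reads per library, with 6, 11 and 4 reads in WT, 1, 6 and 2 in KO4 and 5, 1 and 4 in KO8, and these groups overlapped.

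The base means need no assumption on the replicates, and they placed Id1 beside Bmp4 and Id3. The base mean of Id1 was 222 in the KO4 table and 129 in the KO8 table (both on the KO4 scale), a ratio of 1.72, so that the KO4 mean was at least 1.72-fold the KO8 mean. This ratio was number 6 in size toward KO4 among the 10857 genes whose 2 base means averaged 100 or more. The means of the clones differed by 186 normalised reads, and the WT mean could be at most 257. For Id3 the ratio was 1.64 and for Bmp4 1.77, with the average of the 2 base means under 100 for each. Id2 went the other way, with 169 in the KO4 table and 211 in the KO8 table and KO8 at least 1.25-fold higher. Id1 and Id2 were the 2 of 7 members with enough reads that passed 1.25-fold, beside 1.86% of all genes. The remaining ratios of KO8 over KO4 were 1.03 for Id4, 1.08 for Smad6, 1.05 for Smad7, 1.15 for Bmp7 and 0.941 for Tgfbr3. Such ratios near 1 say nothing of a difference from WT. The paper lists Tgfbr3 as downregulated in naive knockout cells, by mRNA-seq and by RT-qPCR of all its clones.

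**Figure D2:**
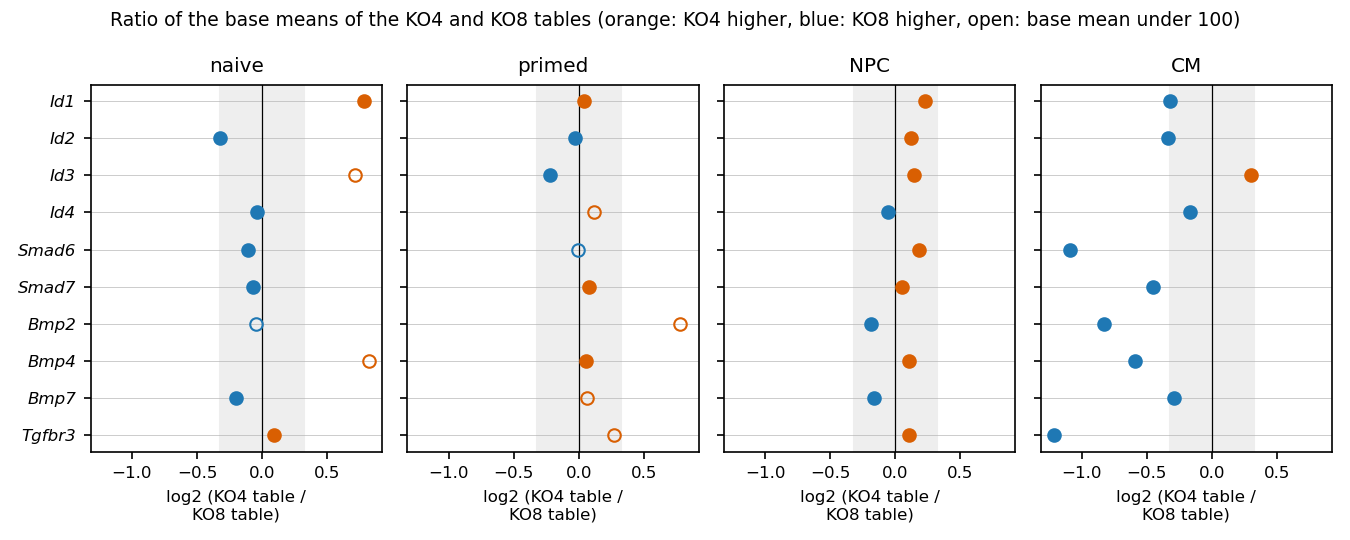
Log2 ratio of the base mean in the KO4 table to that in the KO8 table, scaled to the shared WT libraries, for the 10 genes at each stage (orange, KO4 higher; blue, KO8 higher; open, base mean under 100). Id1, Id3 and Bmp4 lie toward KO4 in naive cells, and in CM 9 of the 10 genes lie toward KO8.

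In primed cells Id4 was lower in both clones. It had 65.6 and 76.9 normalised reads in WT, 42.8 and 26.7 in KO4, and 25.2 and 27.4 in KO8. Neither clone overlapped WT, and the clones overlapped each other. Means were 71.2 ± 7.97 in WT, 34.7 ± 11.4 in KO4 and 26.3 ± 1.57 in KO8 (SD, n = 2), and the log2 fold changes were -1.05 (SE 0.28, limma adjusted p = 0.00689) and -1.40 (SE 0.30, adjusted p = 1.01e-04). The KO4 call was lost without WT library b (adjusted p = 0.0885) and without KO4 library b (adjusted p = 0.0933), the lower of the KO4 libraries.

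Id2 had 323 and 328 normalised reads in WT, 336 and 438 in KO4, and 384 and 421 in KO8. All clone libraries lay above WT, with a log2 fold change of 0.30 in KO8 (SE 0.11, limma adjusted p = 0.0477) and of 0.24 in KO4 (SE 0.12, adjusted p = 0.166). The KO8 call was lost when any single library was left out (adjusted p = 0.0520 to 0.301), and the KO4 comparison passed only without KO4 library a (adjusted p = 0.0160). Id3 had 268 and 256 in WT, 241 and 239 in KO4, and 308 and 340 in KO8, so that KO4 lay below WT and KO8 above it. Neither clone differed from WT by the test, at -0.12 (SE 0.13, adjusted p = 0.545) in KO4 and 0.31 (SE 0.12, adjusted p = 0.0756) in KO8. The difference between the clones was -0.43 (SE 0.13, adjusted p = 0.0394), opposite in direction to that in naive cells, and it was lost when any of the 4 libraries was left out (adjusted p from 0.0819 to 0.354).

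Smad6 had 121 and 108 normalised reads in WT, 86.5 and 86.2 in KO4, and 93.7 and 79.9 in KO8. Both clones lay below WT without overlap, at log2 fold changes of -0.40 (SE 0.19, limma adjusted p = 0.155) and -0.39 (SE 0.20, adjusted p = 0.187), which did not pass. The ligand Bmp4 had 465 and 475 in WT, 557 and 527 in KO4, and 529 and 479 in KO8. Here too the clones lay above WT in every library, by 0.21 (95% interval of the fold, 1.02 to 1.31; adjusted p = 0.124) and 0.10 (0.936 to 1.22; adjusted p = 0.579), far from the fold of KO4 over WT read in naive cells. Bmp7 had 26.6 and 39.9 in WT, 40.7 and 38.0 in KO4, and 31.2 and 41.1 in KO8, and Tgfbr3 had 20.0 and 19.0 in WT, 14.3 and 26.7 in KO4, and 10.1 and 17.1 in KO8, neither with a call. The intervals for these low genes were wide, with a fold of 0.691 to 1.86 for Bmp7 and 0.353 to 1.83 for Tgfbr3 over both clones.

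Bmp2 had 0 and 4 reads in the WT libraries, 4 and 6 in KO4, and 2 and 2 in KO8, too few to test. Of the 7 members tested in primed cells, 1 was lower in KO4 (18.8% of 8842 genes were called), 1 was higher and 1 lower in KO8 (16% of 8823), and 1 differed between the clones (3.14% of 8761). Against WT the members' shares were near those of all genes. Id1 and Smad7 had base means of 1021 and 991, and of 1650 and 1561, in the KO4 and KO8 tables. No member whose 2 base means averaged at least 100 reached 1.25-fold between the clones (0.569% of all genes).

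**Figure D3:**
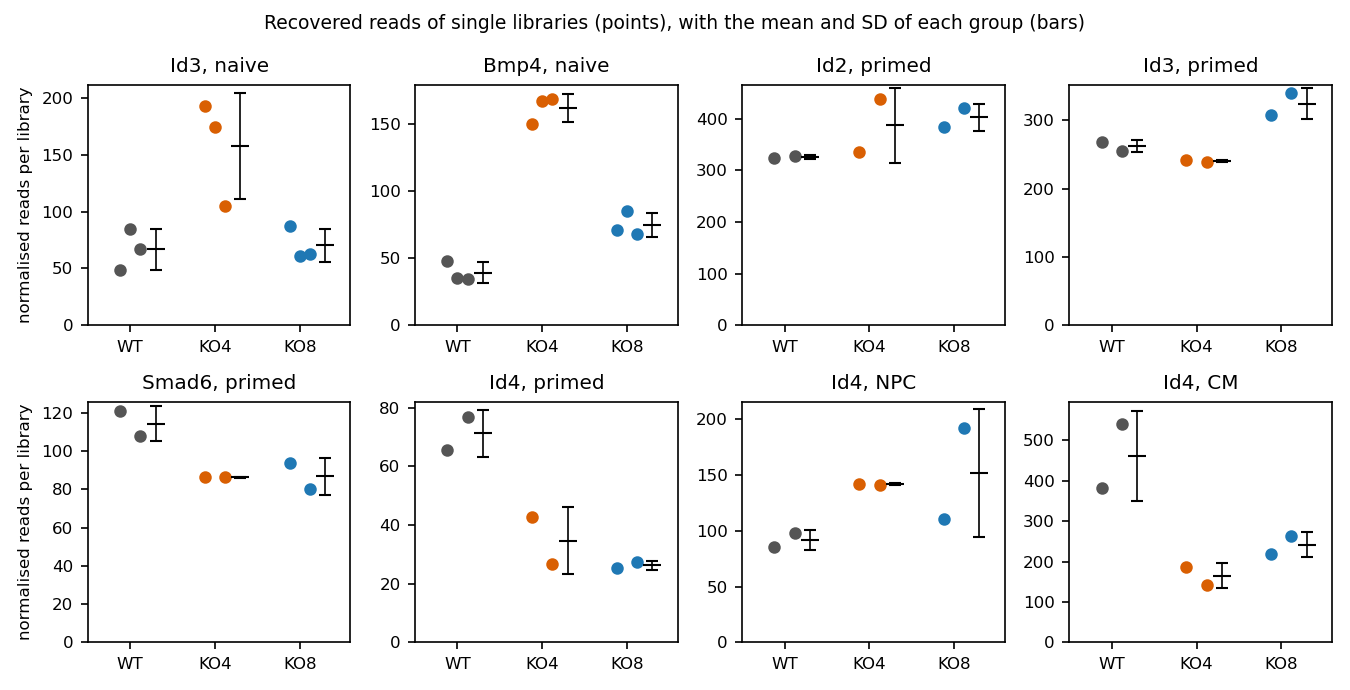
Normalised reads of single libraries (points) with group mean and SD (bars; n = 3 for naive, n = 2 elsewhere) for 8 combinations of gene and stage. KO4 stands above both other groups for Id3 and Bmp4 in naive cells, and Id4 is below WT in both clones in primed cells and CM and above it in NPC.

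In NPC, Id4 lay above WT in every clone library, the reverse of its position in primed cells. It had 85.2 and 98.1 normalised reads in WT, 142 and 141 in KO4, and 111 and 192 in KO8. Means were 91.6 ± 9.10 in WT, 141 ± 0.776 in KO4 and 151 ± 57.5 in KO8 (SD, n = 2). The log2 fold change was 0.62 in KO4 (SE 0.21, limma adjusted p = 0.0353) and 0.67 in KO8 (SE 0.31, adjusted p = 0.251). The KO4 call was lost without WT library a (adjusted p = 0.138) and without either KO4 library (adjusted p = 0.167 and 0.161), while the KO8 comparison passed without KO8 library a, at 1.06 (adjusted p = 0.00147). The KO8 libraries of this stage differed more from each other than any other replicate pair, with a mean squared difference of 10.4 times that of counting noise against 1.82 to 5.05 in the other pairs, and the part of this spread in the results was not tested.

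Markers of neural progenitors moved with Id4 in NPC. Of the 5 genes of that list, the 4 that could be read in single libraries (Sox1, Pax6, Hes5 and Neurog2) summed to between 316 and 452 normalised reads in WT, between 880 and 1093 in KO4 and between 684 and 1487 in KO8, so that every clone library lay above WT, and none of the 4 was at 0. In KO4 all 4 were called higher by limma, beside 18% of all genes in either direction. Their log2 fold changes were 1.82 for Sox1, 1.23 for Pax6, 1.61 for Hes5 and 1.08 for Neurog2. In KO8 Sox1 (2.34, limma adjusted p = 0.0381) and Pax6 (1.13, adjusted p = 0.0452) were called, beside 6.91% of all genes. Hes5 (1.58, adjusted p = 0.0527) and Neurog2 (0.78, adjusted p = 0.393) did not pass. Both KO8 calls were lost with 1 spread for all levels in limma, where 0 of 9016 genes passed. They were also lost without either WT library. Acta2 and Tagln, the 2 of 4 genes of smooth muscle and fibroblasts that could be read, summed to between 1180 and 1516 in WT, between 337 and 383 in KO4 and between 774 and 1078 in KO8. The part of these cell types in the result for Id4 and in those for the other pathway genes of this stage was not tested.

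Bmp2 and Bmp4 did not pass in NPC. Bmp2 had 133 and 160 normalised reads in WT, 128 and 149 in KO4, and 220 and 136 in KO8, and only without KO8 library b did the clones differ (log2 -0.66, limma adjusted p = 0.0366). Bmp4 had 353 and 292 in WT, 370 and 251 in KO4, and 261 and 271 in KO8, with both KO8 libraries below WT at a log2 fold change of -0.27 (SE 0.17, adjusted p = 0.399). Among the 3 members tested, 1 was called in KO4 (18% of 8889 genes), none in KO8 (6.91% of 9016) and none between the clones (0.189% of 8995). All 10 members had base means over 100 and none reached 1.25-fold between the clones, where 4.61% of genes did. The widest was Id1, at 1958 in the KO4 table and 1670 in the KO8 table (ratio 1.17), followed by Bmp2 (KO8 over KO4 1.14), Smad6 (KO4 over KO8 1.13) and Bmp7 (KO8 over KO4 1.12).

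In CM, Id4 was lower in both clones, and lower in KO4 than in KO8. It had 382 and 541 normalised reads in WT, 187 and 143 in KO4, and 219.7 and 263 in KO8. The 3 groups did not overlap, with means of 462 ± 112 in WT, 165 ± 30.9 in KO4 and 241 ± 30.8 in KO8 (SD, n = 2). Log2 fold changes were -1.47 (SE 0.20, limma adjusted p = 2.09e-04) in KO4 and -0.92 (SE 0.18, adjusted p = 0.00413) in KO8, and the clones differed by -0.55 (SE 0.17, adjusted p = 0.0283). The difference between the clones was lost without KO4 library b, KO8 library a or KO8 library b (adjusted p = 0.119, 0.104 and 0.241). Id4 was the only member that could be tested here, and calls were common in CM, with 51.5% of 8704 genes in KO4, 23.4% of 8718 in KO8 and 54.1% of 8733 between the clones.

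Several of these calls rest on the trended spread that limma fits over all genes. With 1 spread for all levels in its place, the calls of Id4 (adjusted p = 0.133 in KO4 and 0.0874 in KO8) and Id2 (0.238) in primed cells, of Id4 in KO4 in NPC (0.0811), of Id4 in KO8 in CM (0.0833) and of the clone differences of Id3 in naive (0.0672) and primed cells (0.381) and Id4 in CM (0.0967) were lost, and those of Bmp4 in naive cells, Id3 in naive KO4 and Id4 in KO4 in CM were kept.

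The base means of the other members separated the clones in CM more than at any other stage. The co-receptor Tgfbr3 had a base mean of 880.0 in the KO4 table and 2043 in the KO8 table, on the KO4 scale, so that KO8 was at least 2.32-fold above KO4 and, since the WT mean could be at most 1760, at least 1.32-fold above WT. Smad6 had 1007 and 2146, with KO8 at least 2.13-fold above KO4 and at least 1.13-fold above WT. These were the 2 members for which a direction against WT follows from the base means alone. The ligands Bmp2, with 866 and 1540, and Bmp4, with 1309 and 1975, were at least 1.78 and 1.51-fold higher in KO8 than in KO4. Smad7 had 1092 and 1496 (KO8 at least 1.37-fold higher), Id2 2298 and 2904 (1.26-fold) and Id1 2373 and 2972 (1.25-fold). Bmp7 and Id4 stayed under 1.25-fold, at 1.22 and 1.12, and Id3 alone was higher in KO4, with 3678 and 2987 (1.23-fold).

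In all, 7 of the 10 members passed 1.25-fold in CM, and in all 7 KO8 was higher, beside 24.2% of 11156 genes in either direction and 14.2% with KO8 higher. With the median ratio of all genes set to 1, Id1 fell under 1.25-fold and 6 members remained. The median log2 ratio of KO4 over KO8 was -0.40 for the members and -0.0035 for all genes. These ratios rest on averages, have no replicate error, and were not tested.

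Markers of several cell types moved with this difference. Of the marker lists, all 6 cardiomyocyte genes, all 4 endothelial genes, all 5 endoderm genes, all 4 genes of smooth muscle and fibroblasts and both trophoblast genes were higher in the KO8 table, with summed levels 1.53, 1.62, 2.27, 1.82 and 1.40-fold those of the KO4 table. Neural progenitor markers were higher in the KO4 table by 2.51-fold in sum (4 of 5 genes, with Sox1 at 21.3-fold and Pax6 at 18.8-fold), neuron markers by 3.14-fold (3 of 3), primed cell markers by 1.58-fold (4 of 4) and naive cell markers by 1.27-fold (4 of 6). No list was at 0 in either table. In summed RPM in the KO4 and KO8 tables, the levels were 670 and 1016 for cardiomyocytes, 503 and 810 for endothelium, 223 and 503 for endoderm, 1844 and 3330 for smooth muscle and fibroblasts, 39.2 and 54.6 for trophoblast, 452 and 179 for neural progenitors, 102 and 32.2 for neurons, 601 and 377 for primed cells and 162 and 127 for naive cells. Some marker genes could be read in single libraries, with these summed normalised reads in WT, KO4 and KO8. Dcx and Map2 had 143 to 161, 303 to 388 and 56.3 to 68.6. Naive markers without Tbx3 had 1597 to 1599, 2741 to 3832 and 748 to 803. Fgf5 and Pou3f1 had 804 to 1235, 2047 to 2462 and 587 to 753. Foxa2 had 310 to 652, 41.0 to 89.4 and 749 to 750. Cdx2 and Eomes had 449 to 1030, 585 to 755 and 1126 to 1352. Hes5 and Neurog2 had 9.32 to 25.6, 131 and 28.2 to 30.7. The part of the cell types in the results for BMP and Id genes was not tested.

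**Figure D4:**
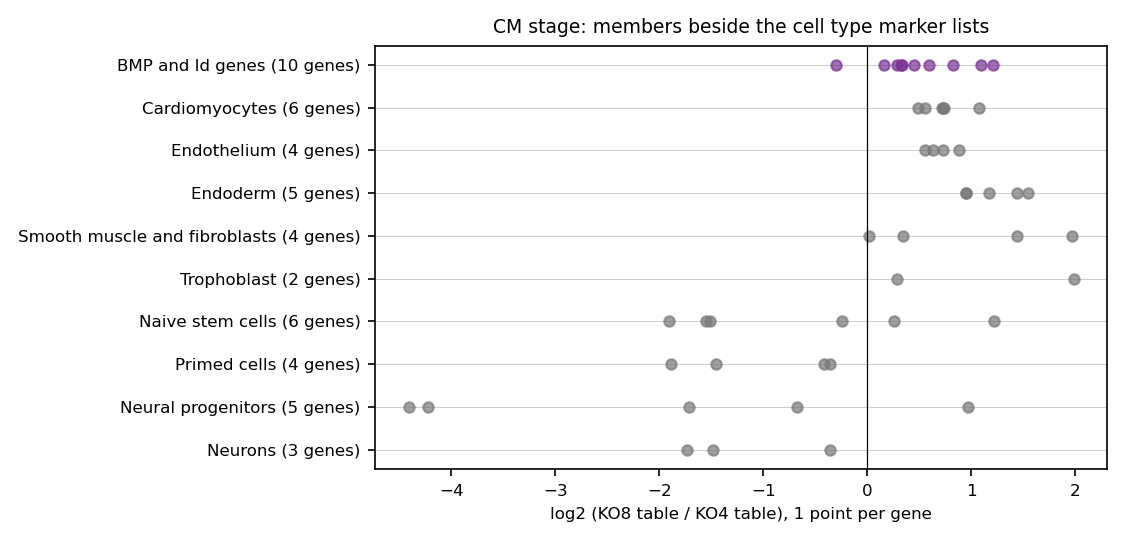
Log2 ratio of the base mean in the KO8 table to that in the KO4 table at the CM stage, 1 point per gene, for the 10 BMP and Id genes and 9 marker lists. Cardiomyocyte, endothelial and endoderm markers and 9 of the 10 members lie to the right (KO8 higher), and most neural and primed cell markers to the left.

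The rest of the pathway was followed in a list of 52 further genes (ligands, receptors, SMADs, antagonists, inhibitors, targets and the E proteins bound by Id proteins). In naive cells 1 of 7 tested genes was higher and 1 lower in KO4, beside 23.6% of all genes in either direction, and 2 of 8 were higher and 1 lower in KO8, beside 21.9%. Those called in both clones were Gata3, a transcription factor and BMP target, with 12.3 normalised reads in WT against 31.7 in KO4 and 41.4 in KO8 (log2 1.30 and 1.68, limma adjusted p = 0.00429 and 1.11e-04), and Smad9, a receptor-activated SMAD, which was lower (-1.65 and -0.60, adjusted p = 5.51e-06 and 0.0287). The calls of Gata3 held without the trend and without any single library. That of Smad9 in KO8 was lost without the trend (adjusted p = 0.106) and without WT library a or b or KO8 library a or c (up to 0.0910). With a base mean of 70.5 in the KO8 table, Smad9 was read with replicates held to within 2-fold of each other. Both of its calls depend on that bound, and its result with a wider search range is not given. In primed cells 4 of 24 were higher and 1 lower in KO4, beside 18.8% of all genes, and 3 of 23 were higher and 1 lower in KO8, beside 16%. Of the KO4 calls, 1 was of a gene with a mean under 10 in the lower group, Hand1 (9.12). That call was lost without WT library b and without either KO4 library. The 3 genes higher in both were the receptor Bmpr2 (0.51 and 0.44, adjusted p = 3.92e-04 and 6.53e-04), Smad1 (0.46 and 0.39, adjusted p = 0.00335 and 0.0117) and the target Junb (0.62 and 0.54, adjusted p = 5.18e-07 and 2.88e-08). Without the trend none of the list calls in primed cells was kept, with adjusted p of 0.132 and 0.194 for Bmpr2, 0.111 and 0.194 for Smad1 and 0.0927 and 0.122 for Junb. In KO8 the call of Bmpr2 was also lost without WT library b (adjusted p = 0.109) and that of Smad1 without either WT library or KO8 library b (up to 0.185).

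In NPC 11 of 25 list genes were higher and 2 lower in KO4, beside 18% of all genes in either direction, with a median log2 fold change of 0.33 against -0.02 for all genes tested. In KO8 3 of 27 were higher and none lower, beside 6.91% of all genes. Without the trend 6 of the 13 calls in KO4 and 0 of the 3 in KO8 were kept. Hand1, a mesodermal target, was higher in both clones (0.98 and 1.51, limma adjusted p = 0.00151 and 0.0264), though in KO8 the call was lost without the trend (adjusted p = 0.139) and without either WT library (up to 0.282). The antagonist Grem1, which had 5 and 3 reads in the WT libraries, 20 and 19 in KO4 and 44 and 51 in KO8, passed the filter only through the clones, and its test is not given. It is 1 of the 13 calls counted in KO4 and 1 of the 3 in KO8, so that the KO8 count is not read as a result beside the share of all genes.

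In CM 7 of 26 list genes were higher and 12 lower in KO4, beside 51.5% of all genes in either direction (median -0.97 against -0.04), and 7 of 27 were higher and 10 lower in KO8, beside 23.4% (median -0.16 against -0.01). Of these calls, 2 in each clone were of genes with a mean under 10 in the lower group, and 16 of the 19 in KO4 and 8 of the 17 in KO8 were kept without the trend. Acvrl1, a type I receptor of endothelial cells, fell from a mean of 962 in WT to 23.2 in KO4 (log2 -5.46, limma adjusted p = 3.32e-06). In KO8 it had 777 against 990.3 in WT on the scale of that table (-0.35, adjusted p = 0.0218), a call that was lost without the trend (0.177) and without either KO8 library (up to 0.175). The ligand Bmp8b (-1.54 and -2.35, adjusted p = 0.00732 and 0.00280) and the antagonists Cer1 (-2.07 and -1.05, adjusted p = 5.70e-04 and 0.0383) and Nbl1 (-0.75 and -1.06, adjusted p = 0.00978 and 0.00339) were lower in both clones. Gdf6, another ligand, was higher in both (1.30 and 2.15, adjusted p = 0.0112 and 7.11e-04). Without the trend the calls of Cer1 in KO8 (adjusted p = 0.228) and Gdf6 in KO4 (0.0816) were lost. In KO4, the calls of Bmp8b (adjusted p up to 0.116), Nbl1 (0.105) and Gdf6 (0.108) were lost without WT library b, those of Bmp8b and Nbl1 also without WT library a, and that of Nbl1 without KO4 library a. In KO8 the call of Cer1 was lost without WT library a or KO8 library a (up to 0.130). The ligand Bmp3, with 16 and 35 reads in the WT libraries, 2 and 6 in KO4 and 2 and 2 in KO8, passed the filter only through WT, and its test is not given.

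Between the clones, the base means of no list gene passed 1.25-fold in naive (25 genes over a base mean of 100) or primed cells (21 genes). The widest were Fst (KO4 over KO8 1.19), Bmpr2 (KO8 over KO4 1.14) and Skil (1.13) in naive cells, and Eng (KO4 over KO8 1.11), Rgmb (1.05) and Smad5 (1.04) in primed cells. In NPC, of 38 genes, 1 passed toward KO4 and 3 toward KO8, beside 1.15% and 3.46% of all genes, with Smad9 (KO4 over KO8 1.39), Chrdl1 (KO8 over KO4 1.35) and Gdf2 (1.35) the widest. In CM, of 39 genes, 14 passed with KO8 higher and 5 with KO4 higher, beside 14.2% and 9.96% of all genes. The BMP antagonists Grem1 and Chrdl1 were 11.5 and 3.93-fold higher in the KO4 table, and Hand1 was 6.09-fold higher in the KO8 table. Grem1 had base means of 197 in the KO4 table and 17.7 in the KO8 table, and Chrdl1 337.6 and 88.4. Both were thus under 100 in the KO8 table and passed that limit only through the average of the tables. They are counted among the 5 genes with KO4 higher. Toward KO8 the same held for Atoh8, with 93.9 in the KO4 table and 209 in the KO8 table.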

How the data were processed

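mRNA of V6.5 mESCs was sequenced in 27 libraries. Per the submitters' processing notes, the authors trimmed reads with Trim Galore 0.6.7, aligned them to mm9 with HISAT2 2.2, counted them with featureCounts and normalised them with DESeq2 1.46.0. The deposited tables, 1 per clone and stage, give for 25209 genes the base mean, a signal averaged by the authors over WT and clone libraries after division by size factors. They also hold the authors' log2 fold changes, standard errors, test statistics and p-values, which were not used. No column per library was analysed here.

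One read adds a fixed step to a base mean, so the reads of all libraries of a stage were searched for whole numbers that gave both base means within rounding, with the normalised reads plus 10 of the replicates within a set fold of each other: 4-fold up to a base mean of 900 at the later stages, and in naive cells 4-fold up to 60 and 2-fold from 60 to 120. Genes with exactly 1 set were kept (96% of genes under the limit in naive, 99.8% in primed, 98.5% in NPC and 99.7% in CM). Folds and limits were chosen after several had been tried, by how many genes had a single set, and with the members' sets in view. The naive 2-fold tier was added so that genes such as Id3 and Bmp4 could be read. Between base means of 60 and 90, 29 of 523 naive genes had no set within 2-fold, so some replicates differ by more, and between 90 and 120, where the KO4 table has Id3 and Bmp4, 123 of 373 (33%) had a single set. The bound lowers the spread between naive replicates. A count test had been planned, but as the reads were recovered from averages, limma 3.58.1 (R 4.3.3, trended empirical Bayes) was run on log2(normalised reads + 1) for genes with a mean of at least 10 reads per library, on the libraries compared, with Benjamini-Hochberg adjustment over all genes tested and a threshold of 0.05. Fold changes are on that scale. The scripts were tested on simulated data.

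Base means of the KO8 tables were put on the scale of the KO4 tables through the shared WT libraries. Ratios were called at 1.25-fold, among genes whose base means in the KO4 and KO8 tables averaged at least 100. Positions and promoters come from the NCBIM37 genome with GENCODE annotation. The named genes were the members, pathway genes called in both clones of a stage or with the 3 largest ratios, Zfp512b, cell type markers, and the 3 genes most like Id1 and Id3 over the tables. The members and lists were chosen with earlier results of these data known. Alternatives were other pseudocounts, filters, scalings, fits, search ranges and libraries left out.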

Additional observations from a re-analysis of the deposited data

Results flagged for a closer look

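Effects that differed between the clones were seen for 3 genes by the limma test of KO4 against KO8. On the log2 scale KO4 exceeded KO8 by 1.11 for Bmp4 and by 1.13 for Id3 in naive cells, and differed from it by -0.43 for Id3 in primed cells and by -0.55 for Id4 in CM. The first 2 values depend on replicates within 2-fold of each other, and the last 2 were lost when single libraries were left out.

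Values on opposite sides of WT at 2 stages, with every clone library above WT at one stage and below it at the other, were seen for 3 genes, and the differences between stages were not tested. The share of all genes that did so was not counted, so the number says nothing of these members in particular. In KO4, Id3 had a log2 fold change of 1.22 in naive cells and of -0.12 in primed cells, which did not pass (adjusted p = 0.545). Id4 had -1.05 in primed cells, 0.62 in NPC and -1.47 in CM in KO4, and -1.40, 0.67 and -0.92 in KO8, of which the 0.67 did not pass (adjusted p = 0.251). In KO8, Bmp4 had 0.93 in naive cells and 0.10 in primed cells against -0.27 in NPC. The latter 2 did not pass (adjusted p = 0.579 and 0.399), and with replicates up to 4-fold apart only 12 of 20 sets of naive reads put KO8 above WT. The clones of a stage share the WT libraries, so that the direction in KO4 and in KO8 is not independent.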

How the results depend on the processing

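In the fits that gave a value, no called difference of a member changed direction. With the wider search range naive Bmp4 in KO8 over WT ran from 0.334 to 7.31 (above WT in 12 of 20 sets) and naive Id3 in KO4 over WT from 0.877 (above WT in 63 of 64). Counts of members called by limma changed as follows. With a search range 2 times as wide, Id3 and Bmp4 had several sets in naive cells and the counts were 0 for KO4, KO8 and KO4 against KO8 there. Without the trend, counts fell to 1 for naive KO4 against KO8 and to 0 for primed KO4, KO8 and KO4 against KO8, NPC KO4, CM KO8 and CM KO4 against KO8. Without the filter they were 0 for primed KO4, 1 for primed KO8, and 0 for primed KO4 against KO8, NPC KO4 and CM KO4 against KO8. With the median difference set to 0, primed KO4 against KO8 had 0. In 1 fit of all 3 groups, primed KO8 had 1 and NPC KO4 0. Leaving out 1 library gave 0 to 2 for primed KO4, 1 for primed KO8, 0 for primed KO4 against KO8, and 0 to 1 for NPC KO4, NPC KO8, NPC KO4 against KO8 and CM KO4 against KO8, where an arm left with 1 library is assumed to vary like the others. At 1.5-fold, a ratio chosen after seeing the data, 1 member passed between the clones in naive cells and 4 in CM.

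Over all genes, limma without the trend called 0 in primed KO4 (1664 as reported), 11 in primed KO8 (1411), 2 in primed KO4 against KO8 (275), 482 in NPC KO4 (1602), 0 in NPC KO8 (623), 0 in NPC KO4 against KO8 (17), 1015 in CM KO8 (2037), 375 in naive KO8 (612) and 91 in naive KO4 against KO8 (300). Without the filter it called 422 in primed KO4, 649 in primed KO8, 4 in primed KO4 against KO8, 397 in NPC KO8 and 1 in NPC KO4 against KO8. The 3 groups together gave 193 in naive KO4 against KO8, 664 in NPC KO4, 1042 in NPC KO8 and 142 in NPC KO4 against KO8. The wider search range gave 381 in naive KO4, 375 in naive KO8 and 174 in naive KO4 against KO8. Leaving out 1 library moved NPC KO8 to between 0 (without either WT library) and 2087 (without KO8 library a) and NPC KO4 against KO8 to between 0 (without either KO4 library) and 1837 (without KO8 library a). It lowered the count to 192 in naive KO4 against KO8 (without KO8 library b), 1023 in primed KO4 (without WT library b), 759 in primed KO8 (without WT library b), 144 in primed KO4 against KO8 (without KO4 library a), 2733 in CM KO4 (without WT library a, 4485 as reported), 1228 in CM KO8 (without KO8 library a) and 2685 in CM KO4 against KO8 (without KO8 library a, 4728 as reported).

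No paired analysis was possible because the recovered libraries carry no replicate number. DESeq2, TMM scaling and the replicate block were not run. Id1 and Smad7 were read in single libraries at no stage, and depth limits what can be said of Bmp2 before differentiation.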
